A study of Homo sapiens with 18 samples.

Results

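DNA replication genes were examined as a group of 43 listed human genes whose products license origins, unwind and copy DNA, supply nucleotides and restore chromatin behind the fork. The list was matched by gene ID to a table of 63677 genes; 42 members were found, and UHRF1 was not analysed here. All 42 were among the 18121 genes that passed a filter on low counts, and the lowest count of any member in any library was 147 reads, for GINS3. The libraries came from WM989, an established human melanoma cell line, so every value describes 1 line. Poly(A)-selected RNA was sequenced in 18 libraries, 3 in each of 6 groups. Cells had received EPZ5676 at 4 µM or the solvent DMSO for 7 days; EPZ5676 blocks DOT1L, the enzyme that methylates lysine 79 of histone H3. Each treatment was taken as the bulk culture, as cells high for the surface receptors NGFR and EGFR, and as cells low for both; these sorted groups are called high and low cells here.

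Replication is prepared in G1, when the origin recognition complex with CDC6 and CDT1 loads the MCM2 to MCM7 ring on DNA. In S phase CDC45 and the GINS complex join the ring to make the active helicase, with MCM10 as a cofactor. DNA polymerase alpha and primase then start each strand, polymerases epsilon and delta extend them with the PCNA clamp that replication factor C loads, and FEN1 and LIG1 finish the lagging strand. Many of these genes are known targets of E2F transcription factors, and they are transcribed from late G1 into S phase.

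Promoter sequences of 4 members are shown because their RNA differed between sorted cells in different directions. Each is the 250 bases before the gene's RefSeq start on its own strand, in GRCh38.p14. MCM6 lies at chr2:135876444-135876693 on the minus strand and GINS2 at chr16:85688955-85689204 on the minus strand; both are genes whose RNA was lower in high than in low cells under DMSO. POLA2 lies at chr11:65261712-65261961 on the plus strand, and its RNA was higher in high cells under both treatments. Capitals in these 3 mark the E2F motif, searched on both strands as TTTCCCGC, TTTCGCGC, TTTGCCGC or TTTGGCGC, and in MCM6 the matches on the strands overlap at 2 places. RRM2 lies at chr2:10122489-10122738 on the plus strand, and its capitals mark 3 copies of CCAAT, since it held none of the E2F letters.
MCM6: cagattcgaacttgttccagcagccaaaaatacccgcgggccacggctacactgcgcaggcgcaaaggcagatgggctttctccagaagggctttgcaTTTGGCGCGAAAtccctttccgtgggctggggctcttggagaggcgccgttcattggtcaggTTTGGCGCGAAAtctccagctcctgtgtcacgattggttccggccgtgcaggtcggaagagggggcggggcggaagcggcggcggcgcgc
GINS2: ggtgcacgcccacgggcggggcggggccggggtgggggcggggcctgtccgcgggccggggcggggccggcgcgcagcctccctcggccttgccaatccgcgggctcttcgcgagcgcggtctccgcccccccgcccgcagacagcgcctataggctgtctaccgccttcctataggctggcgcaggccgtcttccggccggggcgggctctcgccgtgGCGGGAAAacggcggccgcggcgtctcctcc
POLA2: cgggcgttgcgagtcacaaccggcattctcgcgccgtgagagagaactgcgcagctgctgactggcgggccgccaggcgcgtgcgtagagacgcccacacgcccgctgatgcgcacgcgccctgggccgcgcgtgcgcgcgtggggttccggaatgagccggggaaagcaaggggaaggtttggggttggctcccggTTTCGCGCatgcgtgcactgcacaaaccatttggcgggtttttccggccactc
RRM2: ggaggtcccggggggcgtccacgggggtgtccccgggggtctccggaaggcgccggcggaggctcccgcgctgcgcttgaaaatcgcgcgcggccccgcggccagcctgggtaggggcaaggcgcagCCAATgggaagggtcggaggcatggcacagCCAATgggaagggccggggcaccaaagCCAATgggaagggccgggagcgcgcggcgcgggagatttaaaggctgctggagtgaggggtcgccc

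A RefSeq window was at hand for 38 of the 42 members. The E2F letters were in 14 of the 38, or 36.8%, against 2.79% of 27305 windows of the same length. CCAAT was in 55.3% of the members' windows, against 33.0% of all windows. TTTGAA, the core of the cell cycle homology region of mitotic genes, was in 1 member window, that of RRM1, or 2.63%, against 13.6% of all. The windows were not matched for base composition. The bases after 31 of the 38 windows lay at the start of a transcript of the gene. The E2F letters were in 6 of 11 windows of members that were higher in DMSO high cells than in DMSO low cells, in 6 of 13 windows of members that were lower there, and in 2 of 14 windows of the others. A match of letters describes the window and does not show a bound site.

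Gene counts per library ran from 13383741 to 26311674. Levels are CPM, read counts relative to TMM-scaled library size, differences are log2 fold changes ± SE, and a gene was called where the adjusted p-value of edgeR's quasi-likelihood test, with Benjamini-Hochberg adjustment over all 18121 genes, was under 0.05. The sort labels were borne out by NGFR, at 645 to 768 CPM in EPZ5676 high libraries and 1.05 to 6.86 CPM in EPZ5676 low libraries, and at 537 to 617 CPM in DMSO high libraries and 0.639 to 1.61 CPM in DMSO low libraries. EGFR was at 56.0 to 85.6 CPM in the 6 high libraries and 2.26 to 4.81 CPM in the 6 low libraries. DOT1L RNA does not test the inhibitor, which acts on the enzyme; it averaged 184 ± 3.47 CPM in EPZ5676 high cells and 208 ± 11.0 CPM in DMSO high cells (SD, n = 3 libraries each). DMSO bulk replicate 1 stood apart, with NGFR at 220.3 CPM against 12.6 and 9.24 CPM in the other DMSO bulk libraries. It enters the spread that all tests share, so counts are also given without it where they move. In 6 libraries over 16% of reads fell on no gene, namely EPZ5676 bulk replicates 1 and 3, EPZ5676 high replicates 1 and 2, EPZ5676 low replicate 1 and DMSO high replicate 3. Most of them were EPZ5676 libraries. Leaving them out keeps EPZ5676 high replicate 3 and EPZ5676 bulk replicate 2 alone in their groups, so calls of that run rest on less replication. Of the members, 19 share exon bases with another gene, 15 of them with one on the opposite strand; the strand setting of the counting is not given in the sources used here, so reads of such pairs cannot be told apart. The labels do not say that replicates came from separate cultures, so p-values measure only the spread between these libraries.

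**Figure D1:**
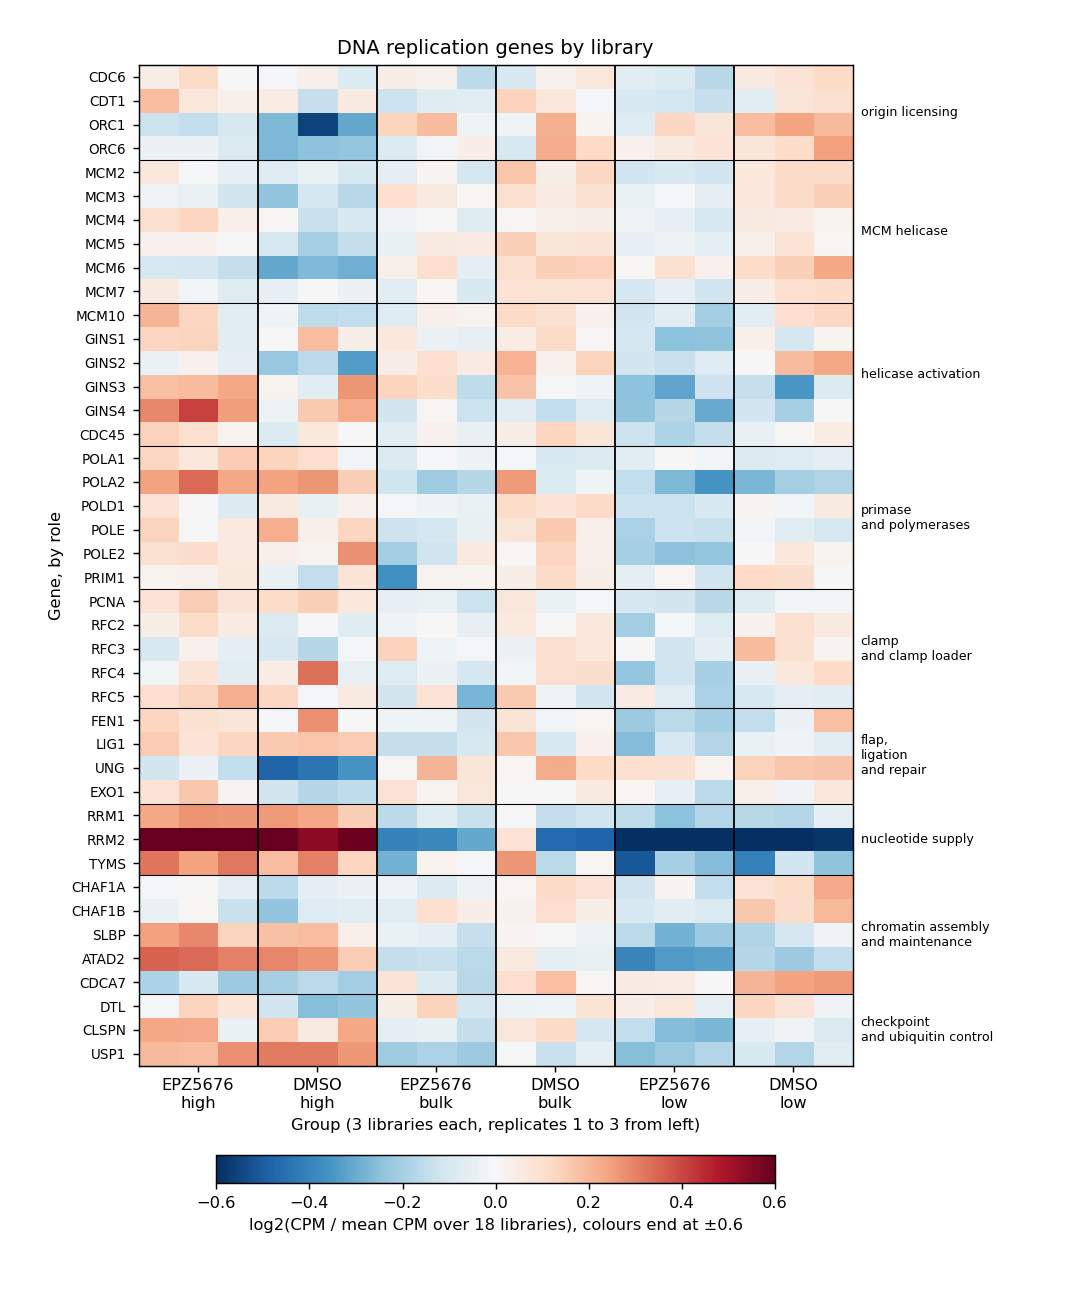
Level of each of the 42 DNA replication genes in each of the 18 libraries, as log2 of its CPM over its own mean in all libraries; rows are genes grouped by role and columns are libraries by group. RRM2 is the row that separates high from low cells most strongly under both treatments, and UNG, ORC1 and MCM6 are lowest in the DMSO high libraries.

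High and low cells differed in most of these genes, and the direction differed between genes. A large part of all genes tested also differed, in both directions. Under EPZ5676, 25 of 42 members were higher in high than in low cells and 3 were lower, where 48.9% of all genes tested were called, 25.8% higher and 23.1% lower. Under DMSO, 13 members were higher and 15 lower, where 56.3% of all genes were called, 29.6% higher and 26.7% lower. All high libraries lay above all low libraries for 30 members and below for 5 under EPZ5676, against 31.5% and 28.8% of all genes, and for 14 and 18 members under DMSO, against 31.6% and 28.7%. Scaling by library size alone changed the DMSO split to 7 higher and 19 lower. The median difference of the members was 0.17 under EPZ5676 and -0.03 under DMSO, beside medians of 0.02 and 0.03 over all genes. Of the members, 13 were higher in high cells under both treatments, 3 were lower under both, 10 were higher under EPZ5676 and not called under DMSO, and 10 were not called under EPZ5676 and lower under DMSO. These joint counts were not made over all genes, so they describe the list only. EXO1 and MCM4 were called in opposite directions, and MCM7, POLD1, PRIM1 and RFC4 were called under neither. RNA of sorted populations cannot tell apart more cells in S phase from more RNA per cell. The 7 melanocyte lineage markers were all lower in high cells under both treatments, with summed levels of 1712 to 1877 CPM in EPZ5676 high libraries against 13899 to 14083 CPM in EPZ5676 low libraries, and 1119.8 to 1331 CPM in DMSO high libraries against 11130.0 to 11602 CPM in DMSO low libraries. Of 8 fibroblast markers 7 were higher in high cells under both treatments, with summed levels of 655 to 806 CPM in EPZ5676 high libraries against at most 102 CPM in EPZ5676 low libraries, and 1180.5 to 1510.5 CPM in DMSO high libraries against 73.6 to 77.4 CPM in DMSO low libraries. Of 6 keratinocyte markers only KRT10 passed the filter on low counts, and it was higher in high cells, at 0.36 ± 0.09 under EPZ5676 and 0.43 ± 0.09 under DMSO; the summed level of the list was 37.1 to 40.7 CPM in EPZ5676 high libraries against 25.2 to 33.6 CPM in EPZ5676 low libraries, and 38.0 to 43.3 CPM in DMSO high libraries against 27.7 to 31.4 CPM in DMSO low libraries. Of 6 endothelial markers 3 passed the filter; VWF was higher in high cells, at 1.09 ± 0.22 under EPZ5676 and 2.14 ± 0.24 under DMSO, EGFL7 was lower, at -0.92 ± 0.12 and -1.24 ± 0.12, and KDR was higher under DMSO, at 2.20 ± 0.42, with 0.47 ± 0.39, not called, under EPZ5676. The summed level of the endothelial list was 24.9 to 27.8 CPM in EPZ5676 high libraries against 34.5 to 36.6 CPM in EPZ5676 low libraries, and 23.2 to 26.8 CPM in DMSO high libraries against 29.7 to 36.1 CPM in DMSO low libraries. KRT1 and PECAM1, defining markers of keratinocytes and endothelium, were at 0 in all 18 libraries. Of the leukocyte markers 2 passed the filter, PTPRC and LYZ, and 0 of them were called between high and low cells by edgeR. The part of these markers in the differences was not tested.

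**Figure D2:**
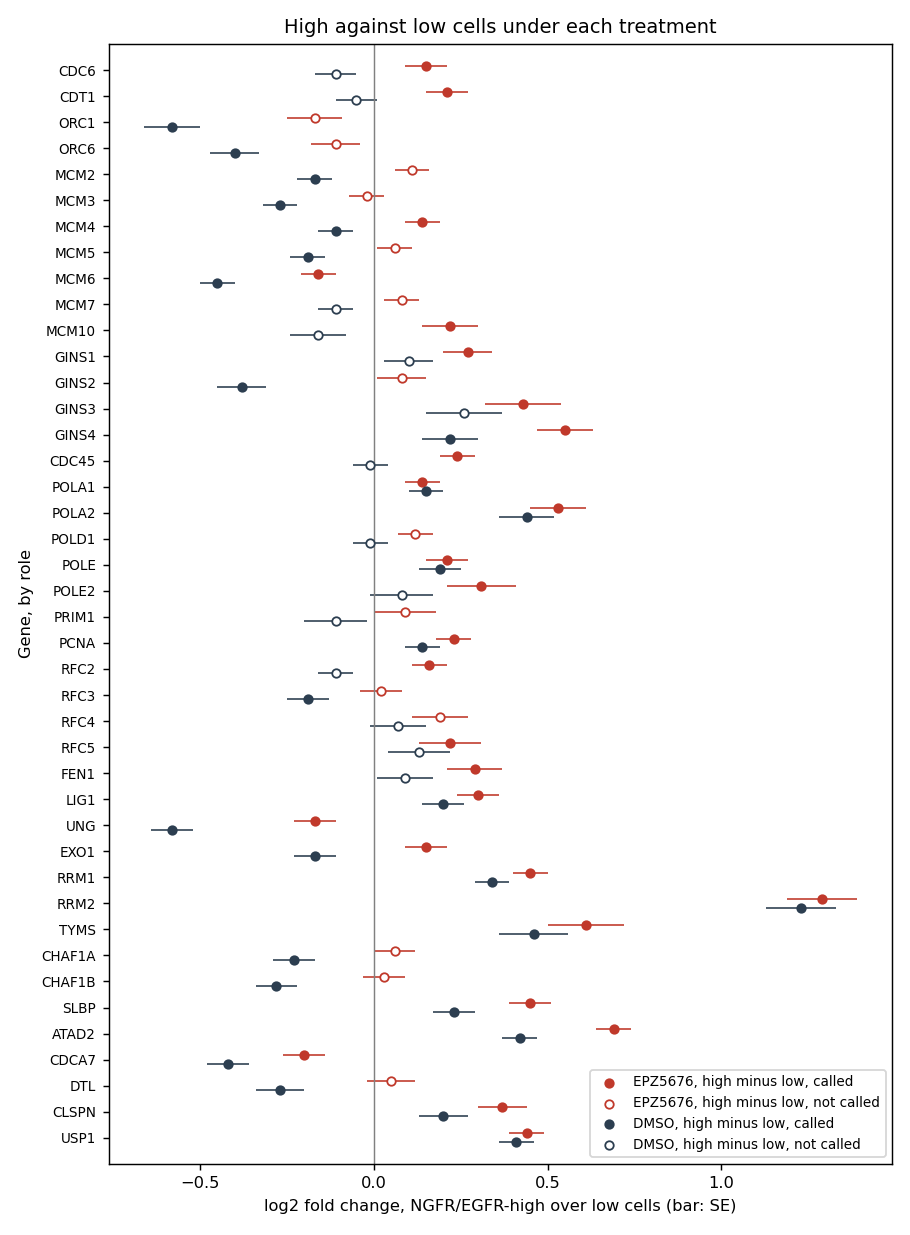
Log2 fold change of each DNA replication gene in NGFR/EGFR-high over low cells, under EPZ5676 (red) and under DMSO (dark blue), with bars for 1 SE; filled points passed the test. The points of RRM2 lie at 1.29 under EPZ5676 and 1.23 under DMSO, and 41 of 42 red points lie to the right of their dark blue partner.

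The nucleotide supply genes were higher in high cells under both treatments, all 3 of 3 each time. Of all genes, 25.8% were higher under EPZ5676 and 29.6% under DMSO. RRM2, the small subunit of ribonucleotide reductase, was at 737, 719.9 and 692 CPM in EPZ5676 high libraries, against 295, 293 and 293 CPM in EPZ5676 low libraries. It was at 709, 656 and 679.6 CPM in DMSO high libraries, against 282.5, 291 and 301 CPM in DMSO low libraries. Every high library was above every low library by a wide margin under both treatments. The ratio was 2.44 under EPZ5676 (log2 difference 1.29 ± 0.10, adjusted p = 8.33e-08 by edgeR) and 2.34 under DMSO (1.23 ± 0.10, adjusted p = 5.37e-08 by edgeR), and RRM2 was the only member past a 2-fold difference. RRM1, the large subunit, was at 164, 168 and 167 CPM in EPZ5676 high libraries, against 125, 117 and 123 CPM in EPZ5676 low libraries. Its levels were 166, 164 and 154 CPM in DMSO high libraries, against 124, 123 and 134 CPM in DMSO low libraries. The high libraries again lay above the low ones without overlap. The log2 difference of RRM1 was 0.45 ± 0.05 under EPZ5676 (adjusted p = 8.77e-07, edgeR) and 0.34 ± 0.05 under DMSO (adjusted p = 1.17e-05, edgeR). TYMS, which makes thymidylate, differed by 0.61 ± 0.11 under EPZ5676 and 0.46 ± 0.10 under DMSO, and its exons overlap those of ENOSF1 and TYMSOS on the opposite strand.

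ATAD2, a bromodomain ATPase found on chromatin during replication, and USP1, the enzyme that removes ubiquitin from PCNA, showed the same direction. ATAD2 was at 329, 326 and 317 CPM in EPZ5676 high libraries, against 195, 203 and 205 CPM in EPZ5676 low libraries. It was at 315, 309 and 286 CPM in DMSO high libraries, against 228, 221 and 232 CPM in DMSO low libraries. EPZ5676 low libraries were thus the lowest and EPZ5676 high libraries the highest of the sorted groups, with no overlap. The log2 difference of ATAD2 was 0.69 ± 0.05 under EPZ5676 (adjusted p = 2.40e-09, edgeR) and 0.42 ± 0.05 under DMSO (adjusted p = 3.52e-07, edgeR). USP1 was at 203, 202 and 214 CPM in EPZ5676 high libraries, against 148.5, 152 and 157 CPM in EPZ5676 low libraries. Its DMSO high libraries held 220.2, 220.4 and 213 CPM, against 167, 157 and 169.5 CPM in DMSO low libraries. High libraries were above low libraries throughout, and the log2 differences were close in size, at 0.44 ± 0.05 under EPZ5676 (adjusted p = 4.62e-07, edgeR) and 0.41 ± 0.05 under DMSO (adjusted p = 5.78e-07, edgeR).

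Most genes of the MCM ring were lower in high cells under DMSO. Of MCM2 to MCM7, 5 of 6 were lower in DMSO high than in DMSO low cells and 0 were higher. Of all genes, 26.7% were lower there and 29.6% higher. MCM7 missed the threshold at -0.11 ± 0.05. Under EPZ5676 only MCM6 was lower in high cells, and MCM4 was higher, at 0.14 ± 0.05, where 23.1% of all genes were lower and 25.8% higher. The summed level of the 6 genes averaged 2179 ± 64.3 CPM in EPZ5676 high libraries and 2081 ± 35.3 CPM in EPZ5676 low libraries, and 2028 ± 15.5 CPM in DMSO high libraries and 2290 ± 32.7 CPM in DMSO low libraries (SD, n = 3 each). MCM6 was at 189.8, 189 and 184 CPM in EPZ5676 high libraries, against 204, 216 and 207 CPM in EPZ5676 low libraries. It was at 164, 169 and 166 CPM in DMSO high libraries, against 219, 224 and 239 CPM in DMSO low libraries. DMSO high libraries were the lowest of the sorted groups and DMSO low libraries the highest. MCM6 fell by 0.45 on the log2 scale (SE 0.05, adjusted p = 1.85e-07, edgeR) in DMSO high cells and by 0.16 (SE 0.05, adjusted p = 0.0139, edgeR) in EPZ5676 high cells.

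ORC1, the ATPase subunit of the origin recognition complex that is degraded in S phase, was at 34.3, 33.8 and 35.0 CPM in EPZ5676 high libraries, against 35.5, 40.9 and 39.4 CPM in EPZ5676 low libraries. In DMSO high libraries it stood at 31.1, 25.5 and 30.3 CPM, against 42.5, 44.1 and 42.9 CPM in DMSO low libraries. High libraries were below low libraries in both cases, by little under EPZ5676. The log2 difference was -0.58 ± 0.08 under DMSO (adjusted p = 4.70e-06, edgeR), and under EPZ5676 it was -0.17 ± 0.08 (adjusted p = 0.101, edgeR). ORC6 was likewise lower under DMSO, at -0.40 ± 0.07, while CDC6 and CDT1 were higher in high cells under EPZ5676, at 0.15 ± 0.06 and 0.21 ± 0.06, and had values of -0.11 ± 0.06 and -0.05 ± 0.06 under DMSO.

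UNG, the glycosylase that removes uracil from DNA, and CDCA7, a partner of the remodeller HELLS, were the other members that were lower in high cells under both treatments. UNG was at 90.2, 95.1 and 87.8 CPM in EPZ5676 high libraries, against 104, 104 and 98.8 CPM in EPZ5676 low libraries. Its DMSO high libraries held 69.9, 71.9 and 76.1 CPM, against 107, 109 and 109.5 CPM in DMSO low libraries. The DMSO high libraries stood well below all other sorted libraries. UNG fell by 0.58 (SE 0.06, adjusted p = 1.19e-07, edgeR) in DMSO high cells and by 0.17 (SE 0.06, adjusted p = 0.0300, edgeR) in EPZ5676 high cells, both on the log2 scale. CDCA7 was at 80.0, 85.8 and 78.7 CPM in EPZ5676 high libraries, against 94.5, 94.2 and 91.6 CPM in EPZ5676 low libraries. It was at 79.5, 81.7 and 79.0 CPM in DMSO high libraries, against 105, 108 and 109 CPM in DMSO low libraries. High libraries had like levels under both treatments. EPZ5676 low libraries lay below DMSO low libraries, a difference that was not called in the fit of all 18 libraries. CDCA7 fell by 0.42 (SE 0.06, adjusted p = 5.34e-06, edgeR) in DMSO high cells and by 0.20 (SE 0.06, adjusted p = 0.0117, edgeR) in EPZ5676 high cells.

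Primase, polymerase, clamp and clamp loader genes and LIG1 were higher in high cells or were not called, with 1 exception. Of the 6 primase and polymerase genes 4 were higher under EPZ5676 and 3 under DMSO, and 0 were lower. Of all genes, 25.8% were higher and 23.1% lower under EPZ5676, and 29.6% higher and 26.7% lower under DMSO. With so few genes in each role, these counts describe the list only. POLA2, the accessory subunit of polymerase alpha, differed by 0.53 ± 0.08 and 0.44 ± 0.08. POLE, the catalytic subunit of polymerase epsilon, differed by 0.21 ± 0.06 and 0.19 ± 0.06. PCNA was higher at 0.23 ± 0.05 under EPZ5676 and 0.14 ± 0.05 under DMSO, and LIG1, the ligase of the lagging strand, at 0.30 ± 0.06 and 0.20 ± 0.06. RFC3, a clamp loader subunit, was the exception, at -0.19 ± 0.06 under DMSO, and at 0.02 ± 0.06, not called, under EPZ5676. Among 6 helicase activation genes 5 were higher under EPZ5676, with GINS4 at 0.55 ± 0.08, while under DMSO GINS4 was higher at 0.22 ± 0.08 and GINS2 lower at -0.38 ± 0.07. SLBP, which binds the stem-loop of replication-dependent histone mRNA, was higher under both treatments, at 0.45 ± 0.06 and 0.23 ± 0.06. CHAF1A and CHAF1B, subunits of the histone chaperone CAF-1, were lower under DMSO, at -0.23 ± 0.06 and -0.28 ± 0.06, and were not called under EPZ5676, at 0.06 ± 0.06 and 0.03 ± 0.06.

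The change in sorting difference with the inhibitor was tested directly as an interaction, the difference of high and low cells under EPZ5676 minus that under DMSO. It was called for 2 members, GINS2 and UNG, both positive, where 0.32% of all genes were called, 0.204% positive and 0.116% negative. Its value was positive for 41 of 42 members, against 49.8% of all genes, with a median of 0.23 against 0 over all genes; POLA1 was the exception at -0.01 ± 0.08. At an unadjusted p under 0.05, 24 members were positive and 0 negative, where 11.1% of all genes passed in either direction. Members measured in the same libraries are not independent of each other, so these counts describe the list.

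GINS2, a subunit of the GINS complex, was at 46.2, 48.4 and 45.9 CPM in EPZ5676 high libraries, against 43.9, 43.4 and 45.2 CPM in EPZ5676 low libraries. It was at 40.7, 42.5 and 37.7 CPM in DMSO high libraries, against 47.5, 54.3 and 56.0 CPM in DMSO low libraries. High libraries lay below low libraries under DMSO, where GINS2 was called lower. Under EPZ5676 they lay above by little, with means of 46.8 and 44.2 CPM, and this difference was not called. The interaction was 0.47 ± 0.10 for GINS2 (adjusted p = 0.0424, edgeR) and 0.41 ± 0.09 for UNG (adjusted p = 0.0474, edgeR). With each library left out in turn, the call held in 5 of 18 fits for GINS2 and in 5 of 18 for UNG. Exons of GINS2 overlap GSE1 on the opposite strand. Without DMSO bulk replicate 1, which is in none of the 4 groups, the interaction was called for 19 members, all positive, among them all of MCM2 to MCM7, ORC1, ORC6, CDC6, CDC45, MCM10, CHAF1A and CHAF1B, where 5.71% of all genes were called. Leaving out the 6 libraries with many reads on no gene left EPZ5676 high replicate 3 as the only library of its group. In that run 40 of 42 values were positive with a median of 0.21, and no count of calls is given for it here.

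**Figure D3:**
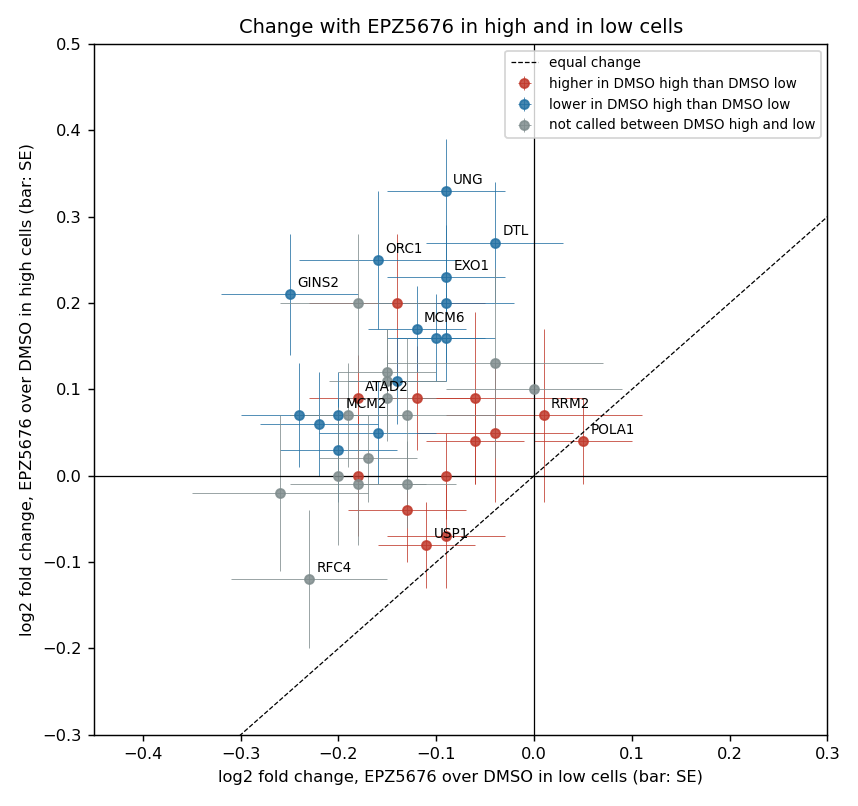
Log2 fold change of EPZ5676 over DMSO in high cells (vertical) against that in low cells (horizontal) for the 42 DNA replication genes, with bars for 1 SE; colours give the call between DMSO high and DMSO low cells, which uses the same DMSO libraries. 29 genes are above 0 in high cells and below 0 in low cells, a pattern that was not counted over all genes. Of the 42, 41 lie above the line of equal change, the exception being POLA1.

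In high cells 3 members, UNG, DTL and EXO1, were higher with EPZ5676 than with DMSO and 0 were lower, where 3.0% of all genes tested were called, 1.95% higher and 1.04% lower. Positive values were found for 33 of 42 members, against 49.6% of all genes, with a median of 0.07 against 0 over all genes. All EPZ5676 libraries lay above all DMSO libraries for 12 members and below for 0, against 12.7% and 12.1% of all genes. At an unadjusted p under 0.05, 13 members were higher and 0 lower, where 16.3% of all genes passed in either direction. UNG had 90.2, 95.1 and 87.8 CPM in EPZ5676 high libraries, against 69.9, 71.9 and 76.1 CPM in DMSO high libraries. The ranges are far apart, and UNG was higher by 0.33 ± 0.06 (adjusted p = 0.00556, edgeR). DTL, the substrate receptor of the ubiquitin ligase that removes CDT1 in S phase, had 97.3, 107.5 and 103 CPM in EPZ5676 high libraries, against 90.3, 82.0 and 83.0 CPM in DMSO high libraries. EXO1, an exonuclease of mismatch repair, had 73.4, 77.5 and 70.0 CPM in EPZ5676 high libraries, against 64.2, 61.6 and 62.3 CPM in DMSO high libraries. Neither gene's groups overlapped, and both were called, at 0.27 ± 0.07 for DTL (adjusted p = 0.0311, edgeR) and 0.23 ± 0.06 for EXO1 (adjusted p = 0.0314, edgeR). Values of the helicase genes were 0.17 ± 0.05 for MCM6, 0.16 ± 0.05 for MCM4 and 0.16 ± 0.05 for MCM5, with adjusted p-values of 0.0659, 0.0798 and 0.0615 by edgeR, none of them called. Without DMSO bulk replicate 1, 9 members were called higher, adding MCM4, MCM5, MCM6, ORC1, ORC6 and GINS2, where 10.7% of all genes were called, and without the 6 libraries with many reads on no gene 0 were called, against 0.0257% of all genes.

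In low cells most values were negative, and 29 of 42 members had a value above 0 in high cells and below 0 in low cells. The share of all genes with such opposite values was not counted, so the 29 have no baseline. MCM2 was the 1 member called lower with EPZ5676, and 0 were called higher, where 1.04% of all genes were called, 0.326% lower and 0.712% higher. Only 3 of 42 values were positive, against 49.9% of all genes, and the median was -0.14 against 0 over all genes. At an unadjusted p under 0.05, 24 members were lower and 0 higher, where 12.0% of all genes passed in either direction, and for 28 members all EPZ5676 libraries lay below all DMSO libraries, against 11.5% of all genes, and above them for 0, against 11.6%. MCM2, a subunit of the helicase ring, had 243, 247 and 243 CPM in EPZ5676 low libraries, against 275, 285 and 285 CPM in DMSO low libraries. The 2 groups do not overlap, and MCM2 fell by 0.20 on the log2 scale (SE 0.05, adjusted p = 0.0498, edgeR); this call held in 5 of 26 alternatives. The values furthest below 0 were -0.26 ± 0.09 for POLE2, -0.25 ± 0.07 for GINS2, -0.24 ± 0.06 for CHAF1B and -0.23 ± 0.08 for RFC4, none of them called. Without DMSO bulk replicate 1, 9 members were called lower, namely MCM2, MCM7, CHAF1A, CHAF1B, ATAD2, GINS2, CDCA7, CDC6 and RFC4, where 5.15% of all genes were called, and without the 6 libraries with many reads on no gene 0 were called, against 0.036% of all genes. For ATAD2, GINS2, MCM4, MCM5, MCM6, ORC1, RFC2 and UNG, all EPZ5676 libraries lay above all DMSO libraries in high cells and below them in low cells. How many of all genes did so was not counted either.

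**Figure D4:**
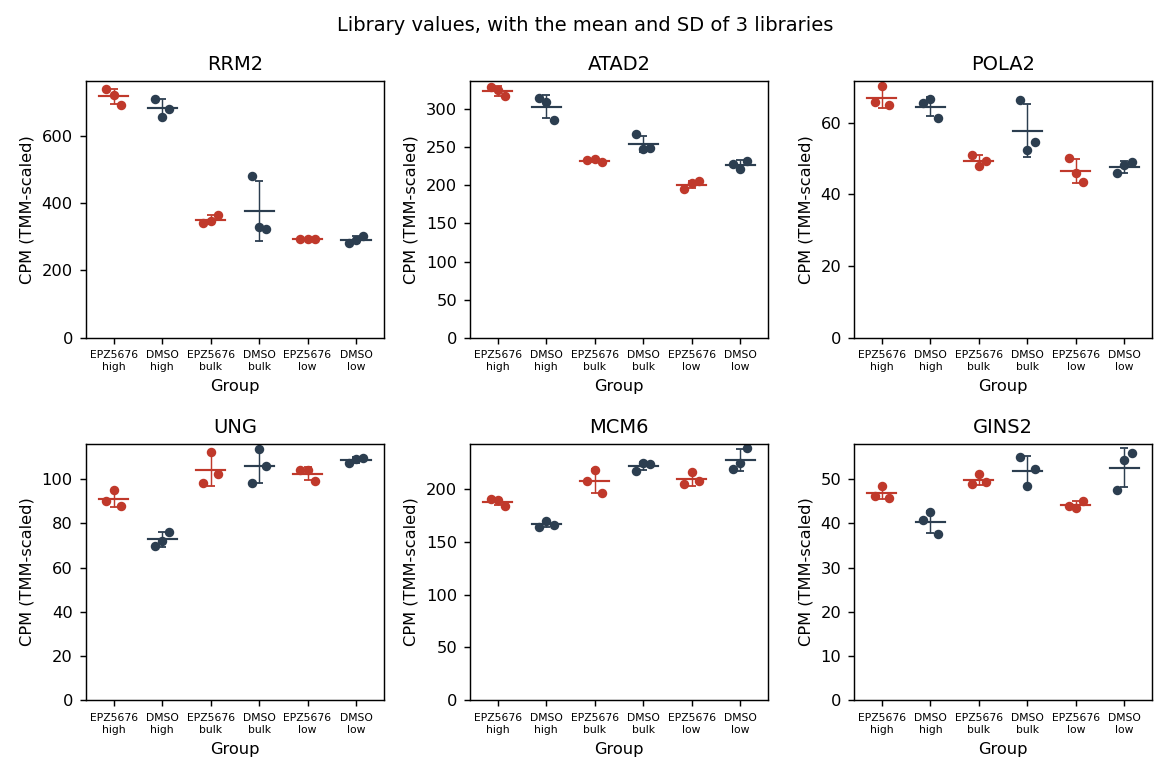
CPM of RRM2, ATAD2, POLA2, UNG, MCM6 and GINS2 in each library (points), with the mean and SD of the 3 libraries of a group (bars); red is EPZ5676 and dark blue DMSO. RRM2 separates high from the other cells under both treatments, while UNG, MCM6 and GINS2 are lowest in the DMSO high libraries; 1 DMSO bulk library is high for RRM2 at 479.9 CPM.

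In bulk cells 0 members were called, where edgeR called 0.728% of all genes, 0.497% higher and 0.232% lower. DESeq2 also called 0 members, against 1.6% of all genes; at an unadjusted p under 0.05, 10 members were lower and 0 higher, where 12.3% of all genes passed. Only 5 of 42 values were positive, against 47.4% of all genes, the median was -0.09 against -0.01, and for 17 members all EPZ5676 libraries lay below all DMSO libraries, against 7.64% of all genes, and above them for 0, against 8.21%. POLA2 had the lowest value, -0.22 ± 0.08, which was -0.12 without DMSO bulk replicate 1; ORC6 and POLE, both at -0.19, were then the lowest. RRM2 was at 341, 345 and 366 CPM in EPZ5676 bulk libraries, against 479.9, 328 and 324 CPM in DMSO bulk libraries. The groups overlap, since the first DMSO library is far above the other 2.

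The mean effect of EPZ5676 over bulk, high and low cells was called negative for 6 members and positive for 0, where 8.26% of all genes were called, 3.79% lower and 4.47% higher. They were USP1 at -0.11 ± 0.03 (adjusted p = 0.0211), RFC4 at -0.16 ± 0.04 (adjusted p = 0.0278), MCM7 at -0.10 ± 0.03 (adjusted p = 0.0296), POLE at -0.11 ± 0.03 (adjusted p = 0.0323), MCM2 at -0.10 ± 0.03 (adjusted p = 0.0419) and LIG1 at -0.11 ± 0.03 (adjusted p = 0.0498), all by edgeR's test. USP1 was at 153, 156 and 153 CPM in EPZ5676 bulk libraries and 176, 162 and 171 CPM in DMSO bulk libraries, with its sorted levels as given above. MCM2 was at 253, 267 and 245 CPM in EPZ5676 bulk libraries and 295, 269.6 and 286.5 CPM in DMSO bulk libraries, and at 276, 261 and 255 CPM in EPZ5676 high libraries and 249.9, 256 and 247 CPM in DMSO high libraries. For both genes the EPZ5676 libraries were all below the DMSO libraries in bulk cells, and in high cells the groups overlapped. MCM7, another subunit of the ring, was at 589, 618.5 and 577 CPM in EPZ5676 bulk libraries and 652, 651 and 652 CPM in DMSO bulk libraries. It was at 637, 606 and 585 CPM in EPZ5676 high libraries and 593, 615 and 599.6 CPM in DMSO high libraries, and at 570.4, 593 and 566 CPM in EPZ5676 low libraries and 631, 658 and 661 CPM in DMSO low libraries. EPZ5676 libraries of MCM7 were lower without overlap in bulk and low cells and overlapped in high cells; its exons overlap AP4M1 on the opposite strand. POLE was at 173, 175 and 183 CPM in EPZ5676 bulk libraries and 198, 211 and 193 CPM in DMSO bulk libraries. It was at 207, 187 and 196 CPM in EPZ5676 high libraries and 219.7, 193 and 206 CPM in DMSO high libraries, and at 165, 173 and 172 CPM in EPZ5676 low libraries and 187, 180.1 and 177 CPM in DMSO low libraries. POLE overlapped in high cells only. LIG1 was at 83.3, 83.5 and 86.1 CPM in EPZ5676 bulk libraries and 103, 86.4 and 93.6 CPM in DMSO bulk libraries. It was at 102, 97.6 and 101 CPM in EPZ5676 high libraries and 103, 103 and 102 CPM in DMSO high libraries, and at 76.8, 86.1 and 81.4 CPM in EPZ5676 low libraries and 89.7, 90.4 and 88.1 CPM in DMSO low libraries. In low cells the EPZ5676 libraries of LIG1 were all below the DMSO libraries, and in high cells the groups overlapped. RFC4, a clamp loader subunit whose exons overlap EIF4A2, was at 63.0, 64.9 and 61.9 CPM in EPZ5676 bulk libraries and 65.9, 71.4 and 71.7 CPM in DMSO bulk libraries. It was at 65.9, 70.7 and 63.8 CPM in EPZ5676 high libraries and 68.7, 83.7 and 64.5 CPM in DMSO high libraries, and at 56.8, 61.3 and 58.1 CPM in EPZ5676 low libraries and 64.6, 69.6 and 72.3 CPM in DMSO low libraries. RFC4 too overlapped in high cells only. In high cells these genes had values between -0.12 ± 0.08 for RFC4 and 0.07 ± 0.05 for MCM2, and in low cells between -0.23 ± 0.08 for RFC4 and -0.09 ± 0.06 for POLE. Without DMSO bulk replicate 1, 8 members were called lower, with CHAF1A, CDCA7 and POLD1 added and LIG1 lost, where 13.5% of all genes were called. The call for USP1 held with each library left out in turn, and that for LIG1 was lost in most such fits, held in 2 of 18.

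Other genes of the same processes were counted beside the members; as background, 25.8% of all genes were higher and 23.1% lower in high cells under EPZ5676, 29.6% higher and 26.7% lower under DMSO, and 49.8% had a positive interaction. Of 39 other replication genes 16 were higher and 6 lower in high cells under EPZ5676, and 12 were higher and 10 lower under DMSO. POLD3, a subunit of polymerase delta, averaged 124 ± 4.20 CPM in EPZ5676 high cells and 75.2 ± 3.35 CPM in EPZ5676 low cells, and 125 ± 12.8 CPM in DMSO high cells and 76.6 ± 1.58 CPM in DMSO low cells (SD, n = 3 each). ORC5, another subunit of the origin recognition complex, and MCMBP, which binds MCM proteins, were lower in DMSO high cells, at -0.54 ± 0.07 and -0.35 ± 0.05. The interaction was positive for 33 of these 39 genes, with a median of 0.11, and was called for 0 by edgeR.

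Other genes of nucleotide supply were called in both directions. Of 16 such genes 5 were higher and 5 lower in high cells under EPZ5676, and 5 were higher and 10 lower under DMSO. RRM2B, an alternative small subunit of ribonucleotide reductase, was higher in high cells under both treatments, as RRM1 and RRM2 were, at 0.20 ± 0.07 under EPZ5676 and 0.39 ± 0.07 under DMSO; it was chosen after its values were seen. CTPS1, which makes CTP, averaged 157 ± 1.98 CPM in EPZ5676 high cells and 226 ± 2.41 CPM in EPZ5676 low cells, and 137 ± 4.42 CPM in DMSO high cells and 241 ± 9.84 CPM in DMSO low cells (SD, n = 3 each). GART and ATIC of purine synthesis fell in high cells under both treatments, GART by 0.34 (SE 0.05) under EPZ5676 and by 0.58 (SE 0.05) under DMSO, on the log2 scale. PAICS of the same pathway was not called under EPZ5676, at -0.03 ± 0.05. Among 15 other chromatin and fork genes, 8 were higher and 1 lower under EPZ5676 and 7 were higher and 3 lower under DMSO, with ASF1B, a histone chaperone, higher by 0.61 ± 0.06 and 0.58 ± 0.07.

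Of 24 genes of G1/S control, 15 were higher and 6 lower in high cells under EPZ5676, and 14 were higher and 9 lower under DMSO. E2F7 and E2F8, repressors of the E2F family, were higher by 1.42 ± 0.12 and 1.27 ± 0.12 under EPZ5676 and by 1.59 ± 0.12 and 1.30 ± 0.12 under DMSO, and CDC25A, a phosphatase that activates CDK2, was lower by -0.86 ± 0.09 under DMSO. MYBL2, a transcription factor that E2F activates, had the one called interaction of this list, 0.42 ± 0.07 (adjusted p = 0.0136, edgeR); it averaged 259.97 ± 15.1 CPM in EPZ5676 high cells and 193 ± 4.26 CPM in EPZ5676 low cells, and 225 ± 2.73 CPM in DMSO high cells and 223 ± 4.89 CPM in DMSO low cells (SD, n = 3 each). For EPZ5676 against DMSO in high cells, 3 of the 24 genes were called higher and 1 lower, where 1.95% of all genes were higher and 1.04% lower. The lower gene was CDKN1B, the inhibitor p27 of cyclin-dependent kinases. It averaged 94.2 ± 5.04 CPM in EPZ5676 high cells and 127 ± 1.94 CPM in DMSO high cells, a difference of -0.43 ± 0.06 (adjusted p = 0.000183, edgeR). Mitosis genes were higher in high cells under both treatments, 35 of 40 under EPZ5676 and 34 of 40 under DMSO with 1 lower each time, and their medians were 0.44 and 0.56. Their interaction was positive for 9 of 40, with a median of -0.09, and was called for 0 by edgeR. UBE2C, a ubiquitin enzyme of mitotic exit, averaged 194 ± 4.92 CPM in EPZ5676 high cells and 88.9 ± 1.03 CPM in EPZ5676 low cells, and 208 ± 5.42 CPM in DMSO high cells and 87.2 ± 2.39 CPM in DMSO low cells (SD, n = 3 each).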

How the data were processed

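Paired-end reads of poly(A) RNA (NEBNext Ultra kit, NextSeq 500, per the labels' protocols) were aligned with STAR to hg19 and counted with HTSeq, per the submitters' processing notes; their versions and the annotation are not given in the sources used here. The deposited values are raw counts per gene. The 5 HTSeq summary lines were left out of library sizes; reads on no feature were 12.8% to 28.65% of a library. Counts were analysed in edgeR 4.0.16 (R 4.3.3) with filterByExpr, TMM scaling and 1 robust quasi-likelihood fit of 6 group means over all 18 libraries. The fit was also run on simulated counts with the same spread for every gene and changes larger than most seen in the members. That run does not test the calls given here. Per library values were written for the 4 called members with the smallest p in each direction of each comparison, for members called in the interaction and for up to 6 called by EPZ5676 against DMSO; from other lists at most 4 called genes were named for each comparison described. Members and lists were chosen with earlier results of these data known. The gene symbols came from a current table of gene names and, where it held none, from GENCODE 29. Exon overlaps were taken from GENCODE 29 on GRCh38, while the reads had been aligned to hg19. The promoters came from RefSeq on GRCh38.p14, used for sequence only. Alternatives were RLE and library size scaling, no filter, keeping genes that averaged 5 CPM or more, a replicate block, DESeq2 1.42.0, only the groups compared, and left-out libraries.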

Additional observations from a re-analysis of the deposited data

Results flagged for a closer look

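The difference between high and low cells changed with treatment, by a test of the interaction itself, for GINS2 at 0.47 and for UNG at 0.41 (log2, EPZ5676 minus DMSO). GINS2 was called lower in DMSO high than in DMSO low libraries. Under EPZ5676 it averaged 46.8 CPM in high and 44.2 CPM in low libraries, a difference that was not called. UNG was lower in high libraries under both treatments, by less under EPZ5676. Each of these calls held in 11 of 26 alternatives, and 0 of them changed sign.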

How the results depend on the processing

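Of 27 calls of named genes, 12 held in every alternative run, 14 held with each single library left out, and 0 changed sign. Members called higher with EPZ5676 in high cells numbered 3, and 5 with library size scaling, 6 with a mean of at least 5 CPM, 6 with DESeq2, 0 without the 6 libraries with over 16% of reads on no feature, and 1 to 9 with 1 library left out. Those called lower in low cells numbered 1, and 0 with RLE scaling, library size scaling, no filter, 5 CPM or without the 6 libraries, 6 with DESeq2, 9 with only the groups compared, and 0 to 9 with 1 library left out. The mean effect gave 6 lower, and 2 with library size scaling, 1 with no filter, 0 without the 6 libraries and 1 to 8 with 1 library left out. High against low cells under EPZ5676 gave 25 higher and 3 lower, and 8 and 0 without the 6 libraries, 0 lower with no filter, and 19 to 28 higher and 0 to 3 lower with 1 library left out; under DMSO the 13 higher became 7 with library size scaling, 7 with no filter, 8 without the 6 libraries and 9 to 14 with 1 library left out, and the 15 lower became 13 to 17. The interaction gave 2, and 1 with library size scaling, 9 with DESeq2, 16 with only the groups compared, 0 without the 6 libraries and 0 to 19 with 1 library left out; 9 higher in high cells, 9 lower in low cells and 19 in the interaction were the counts without DMSO bulk replicate 1. The cause of these moves was not tested. The run without the 6 libraries kept EPZ5676 high replicate 3 and EPZ5676 bulk replicate 2 alone in their groups, so its counts rest on less replication. Deviations of same-numbered replicates from their group means correlated at -0.34 to 0.296 between the groups compared. In some cases this was above the best value with another number and in others below it. The numbers were therefore not taken to pair samples. A replicate block gave 0 members lower in low cells and 1 in the interaction, and left the other counts within 1.5 times.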
